A study of Mus musculus with 7 samples.

Results

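MITF and PU.1 occupancy was followed by ChIP-Seq in C57BLACK6 (C57BL/6J in the study's methods) mouse bone marrow cells. The loci described here are sites with MITF peaks listed after the cells had received RANKL but not before. They were chosen by peak overlap, so such a site may have held MITF tags before RANKL, below the limit of the peak list. A gained site is a peak of the MITF list from osteoclasts (OCs) that shared at least 1 bp with a MITF peak at 36 h of RANKL and with no MITF peak in myeloid precursors (MPs). There were 348 gained sites among 4443 MITF OC peaks, or 7.83% (95% Wilson CI 7.08 to 8.66). Of the 1599 MITF OC peaks without a MITF peak in MPs, 21.8% were gained sites, because the other 1251 had no peak at 36 h. The remaining MITF OC peaks were 2004 found in all 3 MITF lists and 840 found in the MP and OC lists only.

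All groups came from marrow flushed from mice aged 4 to 6 weeks and kept in culture for 3 days in medium with CSF1 at 50 ng per mL, which promotes growth of macrophage-lineage cells. MPs received CSF1 only, the 36 h cells received 100 ng per mL RANKL with CSF1 for 36 h, and OCs received the same RANKL and CSF1 for 72 h. An antibody to MITF or to PU.1 (5 µg, 3 libraries each) recovered the bound chromatin, and IgG was used on MPs only. Each condition has 1 library, so no difference between conditions could be tested against replicates, and all intervals cover counting error only. The cultures were not labelled as sorted, and peak lists hold no expression values by which cell type markers could be checked.

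MITF belongs to the transcription factors with a helix-loop-helix and a leucine zipper, binds E-boxes, short palindromic motifs, and drives genes of bone resorption and of lysosomes. PU.1 is an ETS family protein that binds purine-rich motifs with a GGAA core, is made throughout the myeloid lineage and is needed for OCs to form. RANKL is the cytokine that turns macrophage precursors into OCs, the cells that resorb bone, and MITF and PU.1 are known to act on shared OC promoters.

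The sequences of 8 gained sites are shown on the plus strand of mm9 as the peak lists give their positions, to let the motifs be seen that the results below count. Capitals mark the PU.1 core searched for, which reads GAGGAA or, on the opposite strand, TTCCTC. They also mark the E-boxes, the palindrome CACGTG and its variant CATGTG. The Commd8 site had the highest MITF score of the gained sites in OCs, the Cxcl5 site the highest PU.1 score, and the Spp1 site lay at the promoter of osteopontin. The Fnip2 site held the E-box CACGTG, the Cx3cr1 site lay at a macrophage receptor gene, and the Tbl1xr1 and Ttn sites had the highest ratios of PU.1 in OCs over MPs. The Coil site had no PU.1 peak at any time and no match to either motif.
Commd8, chr5:72561481-72561631: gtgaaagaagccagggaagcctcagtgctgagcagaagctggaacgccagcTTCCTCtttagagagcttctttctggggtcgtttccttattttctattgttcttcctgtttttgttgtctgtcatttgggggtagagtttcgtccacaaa
Cxcl5, chr5:91171195-91171345: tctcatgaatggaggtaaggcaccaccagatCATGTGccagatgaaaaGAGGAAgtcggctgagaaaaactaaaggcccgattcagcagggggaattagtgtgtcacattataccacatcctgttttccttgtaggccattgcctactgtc
Spp1, chr5:104863964-104864114: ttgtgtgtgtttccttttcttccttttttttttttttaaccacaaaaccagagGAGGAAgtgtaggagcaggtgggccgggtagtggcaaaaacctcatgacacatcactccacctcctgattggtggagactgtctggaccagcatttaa
Fnip2, chr3:79335750-79335900: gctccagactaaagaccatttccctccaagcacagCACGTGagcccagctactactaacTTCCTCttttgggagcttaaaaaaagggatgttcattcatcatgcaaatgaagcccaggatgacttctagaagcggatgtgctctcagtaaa
Cx3cr1, chr9:119977952-119978102: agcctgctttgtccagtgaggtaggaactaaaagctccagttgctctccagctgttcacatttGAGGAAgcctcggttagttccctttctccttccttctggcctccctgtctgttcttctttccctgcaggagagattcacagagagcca
Tbl1xr1, chr3:21634725-21634875: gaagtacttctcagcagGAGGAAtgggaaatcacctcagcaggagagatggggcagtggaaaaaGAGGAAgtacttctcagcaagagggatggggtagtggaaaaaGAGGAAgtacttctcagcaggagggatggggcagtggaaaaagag
Ttn, chr2:76684684-76684834: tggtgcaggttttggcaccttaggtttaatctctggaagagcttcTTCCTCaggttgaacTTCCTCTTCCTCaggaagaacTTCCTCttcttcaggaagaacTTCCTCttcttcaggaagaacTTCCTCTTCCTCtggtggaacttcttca
Coil, chr11:88831427-88831577: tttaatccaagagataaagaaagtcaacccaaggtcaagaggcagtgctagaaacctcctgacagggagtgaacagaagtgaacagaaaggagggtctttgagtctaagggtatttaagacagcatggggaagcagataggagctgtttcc

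The MITF scores chose the gained sites and are given as a description. A score is the number of sequenced tags in the peak, scaled to a common library size. It was a whole multiple of 1.1418 in the MITF OC list, so the tags could be recovered. In OCs the gained sites had MITF scores from 9.1 to 40.0 with a median of 11.4, which is 10 tags. The lowest peak of that list held 8 tags, and 82 gained sites were at this limit, 211 had 8 to 10 tags and 15 had at least 20 tags. Most of the gained sites thus stood just above the smallest signal the list can show, as did the MITF OC peaks as a whole, whose median was also 11.4. In MPs the lowest listed MITF peak held 9 tags, a score of 9.3. A gained site may thus have held MITF tags in MPs below this limit, and 26 of the 348 had an OC score of at least 2 times it (18.6).

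At 36 h the MITF scores of the gained sites ran from 9.7 to 264.8 with a median of 12.7. The MITF 36 h list held peaks of unlike width. Its 1417 peaks of 150 bp had a median score of 10.7, and 1398 of them lay below 19.5, which was the lowest score of its 2123 wider peaks. Among the gained sites, 196 matched a 150 bp peak and 152 matched a wider peak. Those on a wider peak had a median MITF score of 27.3 at 36 h against 12.6 in OCs, and 149 of 152 were higher at 36 h. That count was largely set in advance, because no wider peak scored below 19.5 and only 15 gained sites had at least 20 tags in OCs. No rise or fall of MITF is read from it. Those on a 150 bp peak had medians of 10.7 and 10.3, and 99 of 196 were higher at 36 h. The 36 h peaks differed from those in OCs in width and in lowest score, and the part of either in the scores was not tested. Scores at 36 h and in OCs were thus not compared further. Where both are given below for single sites, they are a description and no change is read from them.

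**Figure D1:**
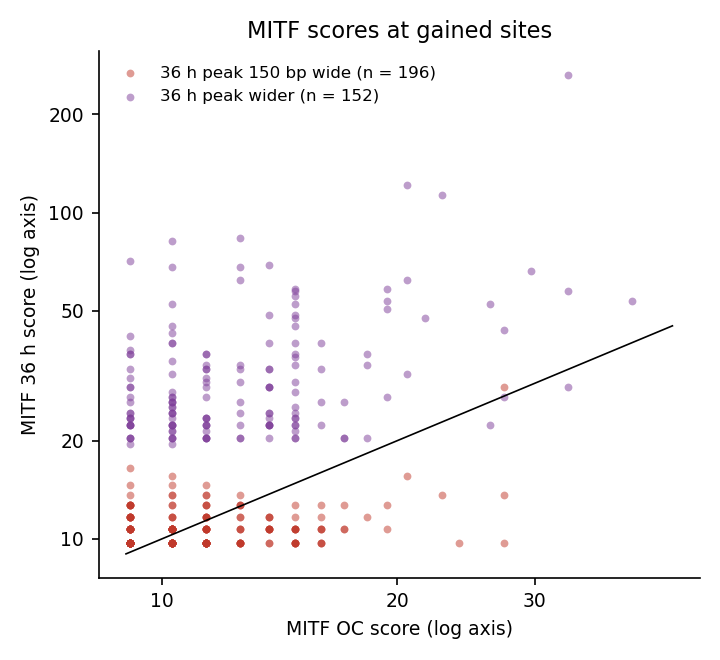
MITF scores of the 348 gained sites in OCs (x axis) and at 36 h (y axis), both on log axes in scaled tags, with the line of equal scores. The 152 sites on a wider 36 h peak (purple) lie almost all above the line, and the 196 on a 150 bp peak (red) lie near the lowest scores of both lists. No wider peak of the 36 h list scores below 19.5, which largely sets the place of the purple sites.

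The limits of the choice in overlap and distance were close for few sites. The score limits were close for most, since 211 of the 348 had 8 to 10 MITF tags in OCs. The nearest MITF MP peak lay 40 bp from a gained site, 9 sites had one within 500 bp and 57 had one within 10 kb. The smallest overlap with a 36 h peak was 68 bp and the median was 139 bp. Just outside the choice, the OC peak at chr10:5745012-5745162 shared 17 bp with a MITF MP peak, with scores of 10.3 in OCs and 9.3 in MPs. The IgG list did not set the gained sites apart, since 0 of all 4443 MITF OC peaks overlapped one of its peaks.

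Nearly all gained sites had a PU.1 peak before RANKL was added. Of the 348 sites, 334 overlapped a PU.1 peak in MPs, or 96.0% (95% Wilson CI 93.4 to 97.6). The count was also 334 at 36 h and 334 in OCs. A PU.1 peak was present at all 3 times at 332 sites (95.4%) and at none at 12 sites (3.45%). The other 4 sites each showed a different pattern, and only 1 of them, in an intron of Lcp1 (the actin-bundling protein plastin), had a PU.1 peak in OCs but neither in MPs nor at 36 h. This pattern was found at 6 of 4443 MITF OC peaks (0.135%). PU.1 peaks at 36 h and in OCs but not in MPs were found at 0 gained sites and also at 6 of 4443 MITF OC peaks, so both patterns are too rare to be read at 348 sites.

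Among all MITF OC peaks 93.3% had a PU.1 peak in MPs and 92.4% had one at all 3 times. The share at all 3 times was 99.1% for sites in all 3 MITF lists, 97.7% for sites in the MP and OC lists and 77.3% for sites in the OC list only. The gap between the gained sites and those in the OC list only depended on the MITF score. At 8 MITF tags in OCs the shares were 97.6% and 66.1%, at 9 to 10 tags 95.3% and 86.7%, at 11 to 14 tags 95.05% and 92.53%, and at 15 or more tags, with 36 and 19 sites, the order was the opposite (91.7% and 94.7%). PU.1 and MITF peaks also shared their centers. The PU.1 OC peak center was a median of 12 bp from the MITF center of a gained site, and at 79.3% of 334 sites it was within 25 bp.

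PU.1 peaks at gained sites were high among PU.1 peaks but lower than at MITF OC peaks in general. Their median PU.1 score was 109.2 in MPs (13.6 to 310.5), 109.4 at 36 h (22.2 to 279.4) and 113.1 in OCs (13.2 to 255.5). The medians of all peaks in the 3 PU.1 lists were 23.9, 23.7 and 23.5. Among the gained sites with a PU.1 peak (334 at each time), that peak was in the top 10% of its list at 62.6% in MPs, 72.2% at 36 h and 69.5% in OCs. Among all MITF OC peaks with a PU.1 peak these shares were 75.9%, 75.9% and 78.5%, and the median PU.1 scores were 146.7, 127.1 and 136.6. Sites in all 3 MITF lists had higher PU.1 scores, with medians of 189.3 in MPs, 162.6 at 36 h and 171.8 in OCs. Sites in the OC list only had lower PU.1 scores, with medians of 85.3, 78.3 and 90.3. In the PU.1 score of OCs the gained sites on a wide MITF 36 h peak (median 113.8) and on a 150 bp one (110.1) were close.

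**Figure D2:**
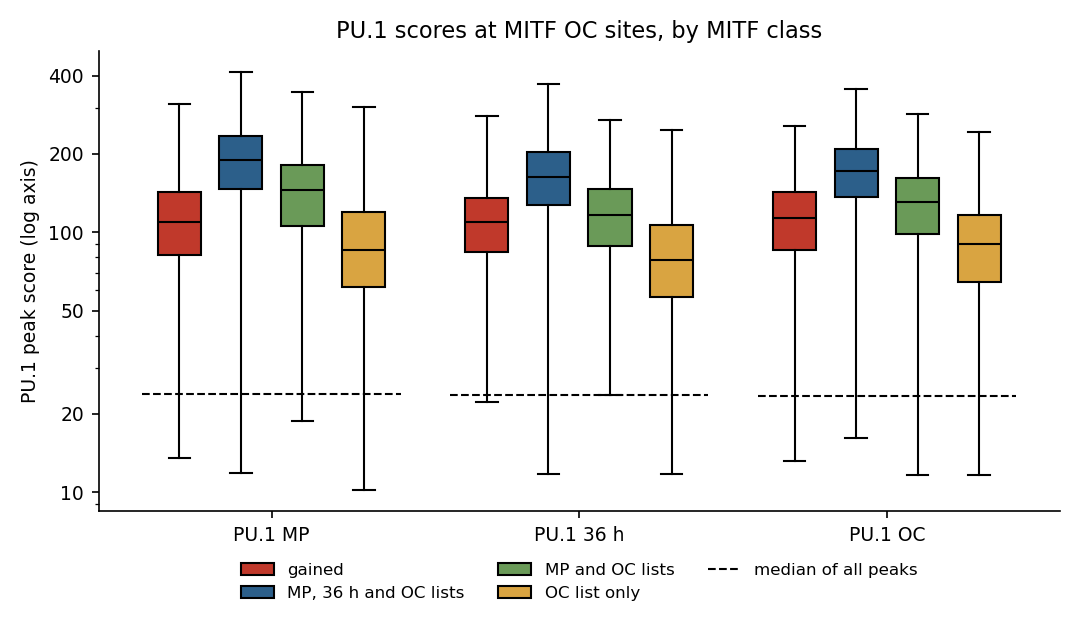
PU.1 scores (log axis, scaled tags) in MPs, at 36 h and in OCs at the gained sites and at the other classes of MITF OC peaks. Boxes show quartiles and medians, whiskers reach the lowest and highest site, and dashed lines mark the median of all PU.1 peaks in each list; gained sites (red) have medians of 109.2, 109.4 and 113.1, below the sites in all 3 MITF lists (blue).

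Across the gained sites, PU.1 scores moved little between MPs and OCs. The ratio of the PU.1 score in OCs to that in MPs could be formed at 333 sites and had a median of 0.025 on the log2 scale, with quartiles of -0.20 and 0.23. It was above 0 at 174 of 333 sites, or 52.3%. At 3 sites the score was at least 2-fold higher in OCs and at 0 sites it was at least 2-fold lower. Among all 4133 MITF OC peaks with such a ratio, 0.508% were 2-fold higher and 0.194% were 2-fold lower.

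Between MPs and 36 h the median log2 ratio of PU.1 scores at the gained sites was -0.050 (n = 333), with 3 sites at least 2-fold higher and 5 sites at least 2-fold lower. In all MITF OC peaks, 0.365% were 2-fold higher and 1.92% were 2-fold lower in this comparison. Between 36 h and OCs the median was 0.064 (n = 332), with 0 sites 2-fold higher and 1 site 2-fold lower, against 0.414% and 0.0243% of all MITF OC peaks. Peaks of the PU.1 36 h list were 190 bp wide and those of the other PU.1 lists 150 bp, and the part of this in the ratios to 36 h was not tested. Nothing more was read from counts this small.

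The signs of the medians at 36 h depended on scaling. Over all pairs of overlapping PU.1 peaks the median log2 ratio was -0.12 for 36 h over MPs, -0.025 for OCs over MPs and 0.11 for OCs over 36 h. Relative to these medians the gained sites stood at 0.074, 0.049 and -0.046, so that the sign changed for both ratios that use the 36 h list. For OCs over MPs it did not change. After the same centring, 5 sites were 2-fold higher and 3 lower at 36 h over MPs in place of 3 and 5. The shares of all MITF OC peaks given above are without centring, so nothing is read from these counts.

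In PU.1 of OCs over MPs the gained sites and the sites bound by MITF at all times had different medians and different tails. Sites in all 3 MITF lists had a median log2 ratio of PU.1 in OCs over MPs of -0.14 (n = 1987), and 26.2% of them were above 0 against 52.3% of the gained sites. With a 1.5-fold limit, 17 gained sites were higher (5.11%) and 5 lower (1.50%), against 0.956% and 3.17% of the sites in all 3 MITF lists and 2.71% and 3.70% of all MITF OC peaks. The gained sites had fewer PU.1 tags, with a median of 64 in MPs against 111 at the sites in all 3 MITF lists. Ratios of fewer tags spread more by counting error, and the tails were not compared at equal PU.1 tags. For sites in the MP and OC lists the median was -0.13 with 32.0% above 0, and for sites in the OC list only it was -0.0005 with 49.9% above 0. In the median and in the share above 0 the gained sites were thus nearer to the other class without a MITF peak in MPs. The tails were mixed. With the 1.5-fold limit, 6.9980% of the sites in the OC list only were higher and 4.8682% lower. The 5.11% of gained sites that were higher was nearer to this class. The 1.50% that were lower was nearer to the sites in all 3 MITF lists. With 1 library per condition these differences could not be tested.

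The difference was present at each level of the MITF score. Among gained sites with 8 tags in the MITF OC list the median log2 ratio of PU.1 in OCs over MPs was -0.004, with 9 to 10 tags it was 0.032, with 11 to 14 tags 0.025 and with at least 15 tags 0.038. Sites in all 3 MITF lists had medians of -0.14, -0.15, -0.14 and -0.15 in the same ranges. Gained sites on a wide 36 h peak and on a 150 bp peak had medians of 0.027 and 0.023. For 36 h over MPs these medians were 0.000 and -0.089.

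**Figure D3:**
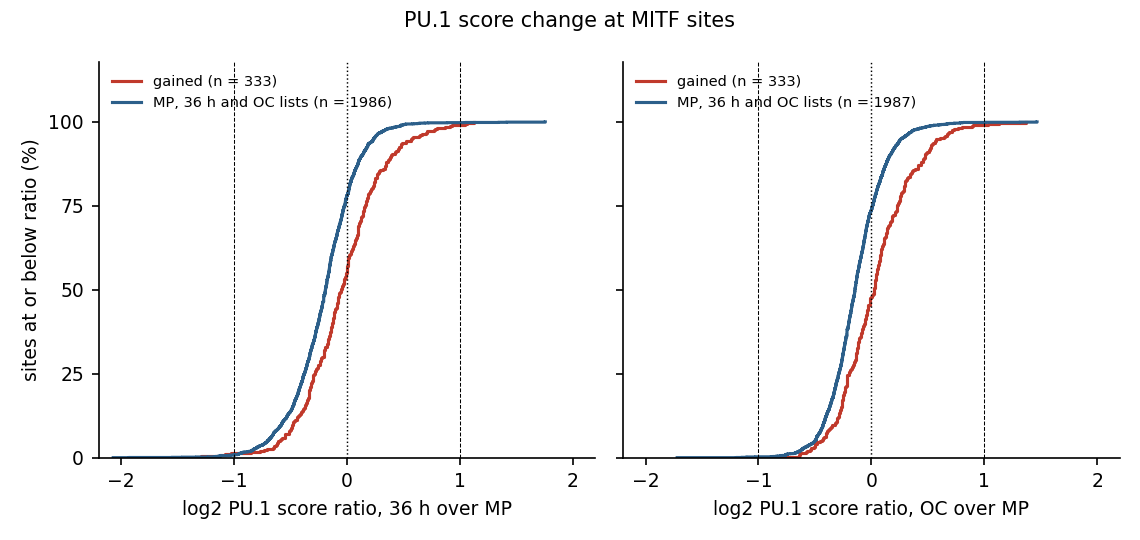
Cumulative share of sites (y axis, %) by log2 ratio of PU.1 scores (x axis) for 36 h over MPs (left) and OCs over MPs (right). Dotted lines mark no change and dashed lines a 2-fold change; the curve of the gained sites (red, median 0.025 for OCs over MPs) lies to the right of that of the sites in all 3 MITF lists (blue, median -0.14), and few sites pass 2-fold in either class.

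The 3 sites past 2-fold in OCs over MPs had Tbl1xr1, Ttn and Zeb1 as their nearest protein-coding genes. At the site -340774 bp from the TSS of Tbl1xr1, a subunit of a nuclear corepressor complex (negative distances are upstream of a TSS), the PU.1 score was 29.0 in MPs, 54.7 at 36 h and 74.9 in OCs. The order was the same in tags, with 17, 37 and 51, and the log2 ratio of OCs over MPs was 1.37 (95% Clopper-Pearson CI 0.55 to 2.25). Its sequence, shown above, holds 3 copies of GAGGAA in a stretch that is largely repeated.

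The Ttn site lay in an exon of the gene for the muscle protein titin, 468 bp from a TSS. This site holds 7 copies of the PU.1 core, most of them in a short repeated unit. Its PU.1 score was 15.4 in MPs, 25.1 at 36 h and 33.8 in OCs, which is 9, 17 and 23 tags, and the CI of the log2 ratio of 1.13 reached below 0 (-0.028 to 2.43). The site assigned to Zeb1, a zinc finger repressor, lay in an intron, 161151 bp from the Zeb1 TSS. The nearest TSS of any gene was that of AC127028.1, 150422 bp away. PU.1 at the site scored 64.8, 96.1 and 132.2, with a log2 ratio of 1.03 (CI 0.47 to 1.61).

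Lower PU.1 in OCs than in MPs was seen at some sites, but none reached 2-fold. The lowest ratio was at a site 3403 bp from the TSS of Zcchc13, with scores of 49.5 in MPs, 68.0 at 36 h and 27.9 in OCs and a log2 ratio of -0.83 whose CI included 0 (-1.74 to 0.058). This site was also the only 1 past 2-fold in OCs over 36 h, with a log2 ratio of -1.29 (CI -2.14 to -0.49). It held 10 copies of GAGGAA, in a stretch of mostly C and T on the plus strand. In an intron of Ston2, which encodes an endocytic adaptor, the scores were 179.1, 113.8 and 114.5, and the log2 ratio of OCs over MPs was -0.65 (CI -1.09 to -0.21). Near Cmbl they were 143.3, 93.1 and 92.5, with a log2 ratio of -0.63 (CI -1.13 to -0.14).

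At 36 h the sites past 2-fold were others. PU.1 was higher than in MPs at the sites near Fabp1 (46.1 in MPs, 100.5 at 36 h, 76.4 in OCs), Amn1 (78.5, 164.1 and 124.8) and Il17rd (63.1, 130.1 and 110.1). It was lower at sites near Kdm4c (92.1, 37.0 and 61.7), Fstl1 (87.0, 35.5 and 58.7), Ly86 (87.0, 39.9 and 72.0), Ifnab (199.6, 94.6 and 148.3) and Gnat3 (153.5, 75.4 and 105.7). Of these genes, Il17rd encodes a receptor of the interleukin 17 family and Ly86 a partner of a Toll-like receptor homolog on myeloid cells. Their values at 36 h come from the single library whose peaks were wider.

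**Figure D4:**
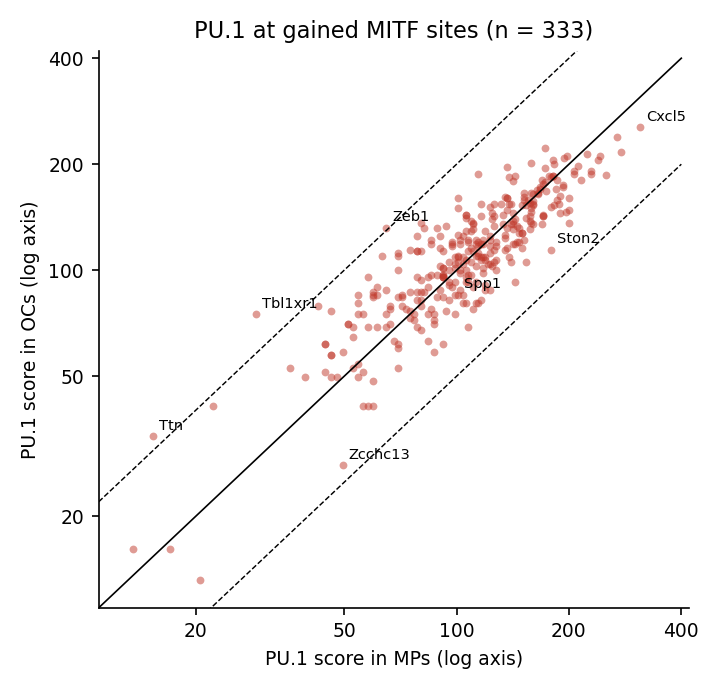
PU.1 score in OCs (y axis) against that in MPs (x axis) at the 333 gained sites with a PU.1 peak in both lists, on log axes in scaled tags. The solid line marks equal scores and the dashed lines a 2-fold difference; 3 sites (Tbl1xr1, Ttn and Zeb1) lie past the upper dashed line and 0 past the lower.

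The 12 gained sites without a PU.1 peak at any time had MITF scores close to those of the other gained sites. The gained sites on Un_random and X_random, which are unplaced sequence, were among the 12. The MITF scores of the 12 in OCs ran from 9.1 to 33.1 with a median of 12.0, against 11.4 for the other gained sites, and 1 was among the 10 highest. That site, on chromosome 18, had a MITF score of 33.1 in OCs and 264.8 at 36 h, and a PU.1 OC peak lay 2 bp from its edge. Of the 12 sites, 4 had a PU.1 OC peak within 500 bp without overlap, and the sites near Gramd1b, Obfc1 and Cacna1e had one 110, 162 and 97 bp away. At the Coil site, -64 bp from the TSS of the gene for the Cajal body protein coilin, the nearest PU.1 OC peak was 11023 bp away, and MITF scores were 10.3 in OCs and 13.6 at 36 h. Of the 9 gained sites with a MITF MP peak within 500 bp, 4 had no PU.1 peak and 3 had one at all times, while 329 of the other 339 (97.1%) had PU.1 at all times.

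In the genome the gained sites were mostly distal. On the 346 sites on annotated chromosomes the median distance from the peak center to the nearest TSS was 11117 bp. Within 1 kb of a TSS lay 40 sites (11.6%, 95% Wilson CI 8.61 to 15.4), 126 lay 1 to 10 kb away (36.4%), 159 lay 10 to 100 kb away (46.0%) and 21 lay farther (6.07%). For all MITF OC peaks these shares were 10.6%, 35.7%, 47.4% and 6.36%, so the TSS distances of the gained sites were within their CIs of those of the list. PU.1 OC peaks lay within 1 kb of a TSS in 15.5% of cases. Introns held 176 gained sites (50.9%), intergenic sequence 153 (44.2%) and exons 17 (4.91%), against 51.0%, 43.5% and 5.46% of all MITF OC peaks. Another MITF OC peak lay within 10 kb of 46 sites, or 13.3% against 16.4% of all MITF OC peaks.

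Gained sites held the PU.1 core as often as MITF sites in general, and E-boxes were scarce. Motifs were searched on both strands in the 151 bases of each peak. GAGGAA was found in 234 of 346 gained sites, or 67.6% (95% Wilson CI 62.5 to 72.3), against 67.2% of all MITF OC peaks, 74.7% of the sites in all 3 MITF lists and 55.8% of PU.1 OC peaks. Its nearest copy was a median of 14.5 bp from the MITF peak center. The longer form GAGGAAGT, which contains GAGGAA, was found in 96 (27.7%), against 30.9% of all MITF OC peaks and 22.3% of PU.1 OC peaks.

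CACGTG was found in 2 gained sites (0.578%) and CATGTG in 27 (7.80%). Either E-box was found in 28 sites, or 8.09% (CI 5.66 to 11.4), against 11.8% of all MITF OC peaks, 10.8% of the sites in all 3 MITF lists and 13.2% of PU.1 OC peaks. The extended form TCATGTG, which contains CATGTG, was found in 12 (3.47%), against 3.25% of all MITF OC peaks and 3.40% of PU.1 OC peaks, and TCACGTG, which contains CACGTG, in 2. Gained sites on wide and on 150 bp peaks of the 36 h list held an E-box in 8.61% and 7.69% of cases.

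Motifs of other OC factors were found at shares near the background. The AP-1 motif TGACTCA was found in 23 gained sites (6.65%) and in 5.12% of all MITF OC peaks and 6.42% of PU.1 OC peaks. The NFAT core TGGAAA was found in 14.7% against 14.8% and 13.8%, the RUNX core TGTGGT in 13.6% against 13.6% and 13.1%, and the C/EBP motif TTGCNNAA in 8.38% against 8.82% and 8.34%. The NF-kappaB motif GGGANTTCC was found in 3 sites (0.867%), against 1.92% and 1.75%. The median GC content of gained sites was 48.3% and that of all MITF OC peaks 47.7%.

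**Figure D5:**
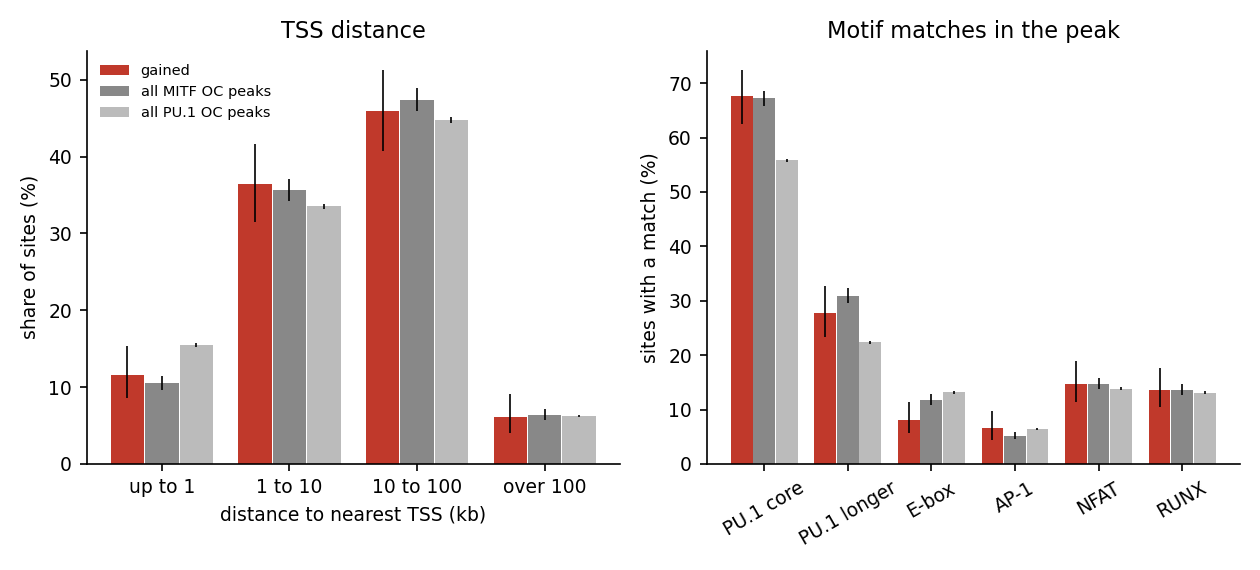
Left, share of sites (y axis, %) by distance to the nearest TSS; right, share of sites with a match to each motif in the peak, for gained sites (red), all MITF OC peaks (dark gray) and all PU.1 OC peaks (light gray). Bars are shares with 95% Wilson CIs; the PU.1 core is GAGGAA, found in 67.6% of gained sites, and E-boxes are CACGTG or CATGTG, found in 8.09%.

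The gained sites had 341 distinct nearest protein-coding genes, and 5 genes had 2 gained sites each, among them Cd44, the histone demethylase gene Kdm4c and Tomm20, a gene of the mitochondrial import complex. At 200 of 346 gained sites, or 57.8% (95% Wilson CI 52.5 to 62.9), the nearest gene had no other MITF OC peak nearest to it, against 52.9% of all MITF OC peaks and 57.5% of the sites in the OC list only. Of the 341 genes, 164 were also nearest to a MITF peak in MPs. A nearest gene is an assignment by position and was not tested as a target.

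Of 162 genes in 8 lists of OC and macrophage biology, 8 were nearest to a gained site, with 9 sites in all. These are 2.59% of the gained sites, against 3.85% of all MITF OC peaks (171 peaks at 89 of the genes). Of the 8 genes, Cd44, Cx3cr1, Fos and Ptk2b were also nearest to MITF sites found in all 3 MITF lists, while Ccl3, Etv3, Fnip2 and Spp1 were nearest to no MITF OC peak but the gained one. None of the 14 genes of resorption and acid secretion, such as Acp5, Ctsk and Atp6v0d2, and none of the 23 genes of RANK signalling was nearest to a gained site. These lists were nearest to 7 and 21 of all MITF OC peaks, or 0.158% and 0.473%, so few or no sites are to be looked for among 348, and nothing is read from the counts of 0.

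Among 34 OC transcription factors, Fos, the AP-1 subunit without which OCs do not form, was the only gene nearest to a gained site (0.287% of gained sites, against 1.28% of all MITF OC peaks, which lay at 22 of these genes). Fos also had a MITF site in all 3 MITF lists and 2 in the OC list only. Its gained site, -5084 bp from the TSS at chr12:86809681-86809831, had MITF scores of 31.1 at 36 h and 11.4 in OCs and PU.1 scores of 179.1, 168.5 and 151.2 in MPs, at 36 h and in OCs. The PU.1 ratio of OCs over MPs was -0.24 on the log2 scale with a CI that included 0 (-0.65 to 0.16), and the site held CATGTG but no GAGGAA. Among 10 PU.1 paralogs and ETS genes, Etv3, an ETS repressor, had a gained site at -4074 bp with MITF scores of 15.6 at 36 h and 20.6 in OCs. PU.1 there scored 228.6, 199.5 and 190.9, high at each time.

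Of 21 adhesion and podosome genes, Spp1 and Ptk2b were nearest to a gained site. The Spp1 site, shown above, lay at -98 bp from the TSS of the gene for osteopontin, a bone matrix protein to which OCs attach. Its MITF scores were 13.6 at 36 h and 9.1 in OCs, the latter at the limit of 8 tags, and its PU.1 scores were 100.6, 81.3 and 85.2. The PU.1 ratio of OCs over MPs was -0.24 (CI -0.79 to 0.31). The nearest MITF MP peak was 523233 bp away. In an intron of Ptk2b, the podosome kinase PYK2, the MITF scores were 9.7 and 11.4 and the PU.1 scores 151.8, 161.1 and 158.6, and the site held 2 copies of GAGGAA.

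Of 10 fusion genes, Cd44, a hyaluronan receptor, had 2 gained sites at -42558 and -72569 bp. Both had the lowest MITF OC score of 9.1, with 11.7 and 12.7 at 36 h. The PU.1 scores were 145.0, 140.4 and 133.6 at the nearer site and 182.5, 119.7 and 152.7 at the other. Of 28 lysosome and autophagy genes, Fnip2, a partner of folliculin, which restrains the MITF family, had a gained site at -16651 bp. The distance is to the nearest annotated TSS, and the position was classed as intron, that is within a gene body. The site had MITF scores of 69.1 at 36 h and 13.7 in OCs, and PU.1 scored 95.5, 112.3 and 99.9. Its E-box and its PU.1 core can be seen in the sequence above.

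Of 23 macrophage and inflammatory genes, Cx3cr1, the fractalkine receptor, and Ccl3, a chemokine, were nearest to a gained site. The Cx3cr1 site lay at -627 bp from the TSS, with MITF scores of 10.7 at 36 h and 14.8 in OCs and PU.1 scores of 117.7, 102.0 and 121.9. The Ccl3 site lay at -6508 bp, with MITF scores of 10.7 and 9.1 and PU.1 scores of 114.3, 94.6 and 120.4. At all 9 sites near list genes PU.1 had peaks at the 3 times, and all 9 CIs of the PU.1 ratio of OCs over MPs included 0.

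The gained sites with the highest MITF scores in OCs lay near other genes. The first, at -2134 bp from the TSS of Commd8, had MITF scores of 53.5 at 36 h and 40.0 in OCs and PU.1 scores of 158.6, 144.9 and 165.9. The site near Cxcl5, which encodes a chemokine for neutrophils, lay at -17055 bp with MITF scores of 66.2 and 29.7. Its PU.1 scores of 310.5, 251.3 and 255.5 were the highest of any gained site in MPs and in OCs, and its sequence holds CATGTG and GAGGAA. At chr9:108242861-108243011, 1329 bp from the TSS of Gpx1, a glutathione peroxidase, MITF scored 29.2 and 27.4 and PU.1 223.5, 215.8 and 214.4. A site in an intron of Large, a glycosyltransferase gene, had MITF scores of 43.8 and 27.4 and PU.1 scores of 75.1, 90.2 and 114.5. Of the 10 sites with the highest MITF OC scores, 9 had PU.1 peaks, and this was the only 1 of them whose PU.1 ratio of OCs over MPs had a CI that left out 0 (log2 0.61, CI 0.059 to 1.18).

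Within 1 kb of a TSS, MITF scores in OCs were highest at sites near D6Wsu163e (33.1, with 29.2 at 36 h), F630110N24Rik (21.7 and 47.7) and Arrb1 (19.4 and 10.7), the gene for a beta-arrestin. The Arrb1 site lay at -428 bp from the nearest annotated TSS, at a position classed as intron. PU.1 there scored 90.4 in MPs, 110.9 at 36 h and 124.8 in OCs. The site near Ski, a corepressor of TGF-beta signalling, had MITF scores of 9.7 and 14.8 and PU.1 scores of 136.5, 100.5 and 132.2. The site at -314 bp from Clec4a4, a C-type lectin receptor gene, had MITF scores of 48.7 and 13.7 and PU.1 scores of 104.1, 66.5 and 85.2. At all 5 of these sites the CI of the PU.1 ratio of OCs over MPs included 0. Among the 10 highest sites within 1 kb of a TSS, it left out 0 at the Amn1 and Fabp1 sites only. The log2 ratios there were 0.67 (CI 0.14 to 1.22) and 0.73 (CI 0.032 to 1.46).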

How the data were processed

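MITF and PU.1 ChIP-Seq peak lists from MPs, 36 h cells and OCs and an IgG list from MPs were analysed, 7 libraries with 1 per condition, grouped by their labels. The authors mapped reads to mm9 with Bowtie2 after CASAVA 1.8, called peaks with HOMER and deposited for each peak a position, a score and the nearest RefSeq transcript. Settings and other versions are not given in the sources used here. No reads were analysed, so no peak was called again. The deposited score is the tag count scaled to a common library size, and division by the score of 1 tag (0.9734 to 1.7058 over the MITF and PU.1 lists) gave whole tags to within 0.0572 score units. If the scale is 10000000 tags, which is assumed, the MITF libraries held between 8760000 and 10270000 tags and the PU.1 libraries between 5860000 and 6810000. The lowest MITF peaks held 8 to 10 tags, the smallest signal the lists show.

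Peaks sharing 1 bp or more were matched between lists, and the PU.1 value of a site was the highest score among overlapping PU.1 peaks. A site was called changed at 2-fold. No p-values were computed. Shares have 95% Wilson intervals and tag ratios 95% Clopper-Pearson intervals. TSS distances, gene classes and nearest protein-coding genes were taken at the peak center from the GENCODE annotation of mm9, on chromosomes 1 to 19, X and Y, which left out 2 gained sites. Sequences were read from the mm9 genome. Older gene symbols of that annotation were matched through a RefSeq gene table. Sites were picked by rule: the 10 highest in MITF OC score, the 10 highest within 1 kb of a TSS, those nearest to a gene of the lists, the 5 highest and 5 lowest PU.1 ratios of OCs over MPs, the sites without PU.1, and those nearest to the limits. Not every picked site is named in the text. Sites past 2-fold at 36 h were named after their values had been seen, as were the genes with 2 gained sites. The gained sites and the gene lists were chosen with earlier results of these data known. Overlaps, tags and intervals were tested on simulated data. Python 3.11.15, numpy 2.4.6, scipy 1.17.1, matplotlib 3.10.9, pysam 0.24.0 and samtools 1.23.1 were used. Alternatives to the overlap rule, score threshold, fold, scaling, annotation and motif window were computed.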

Additional observations from a re-analysis of the deposited data

How the results depend on the processing

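Of 94 alternative values, 76 moved by less than the interval or factor allowed and 18 moved by more. Centring on all PU.1 pairs changed the sign of the median log2 ratio of PU.1 from -0.050 to 0.074 for 36 h over MPs and from 0.064 to -0.046 for OCs over 36 h, within their quartiles. The number of gained sites moved past 1.5 times under only 1 alternative. Requiring 2 times the lowest score in the MITF OC and 36 h lists left 22 sites, of which 90.9091% had a PU.1 peak in MPs, 86.3636% in OCs and 86.3636% at all 3 times. With a 1.5-fold limit, 16 sites were higher and 18 lower in PU.1 at 36 h over MPs. These were 4.8048% and 5.4054% of gained sites with this ratio, against 1.8487% and 11.9679% of all MITF OC peaks. In OCs over MPs, 17 were higher and 5 lower, with the shares given above. In OCs over 36 h, 14 were higher and 6 lower. These were 4.2169% and 1.8072%, against 4.8163% and 0.6811% of all MITF OC peaks. With the centred ratios the split of 3 sites 2-fold higher and 5 lower at 36 h over MPs became 5 higher and 3 lower, and 3 sites were lower in OCs over 36 h. With absent PU.1 peaks set to the lowest score of the list, 1 site was lower in OCs over MPs, and 1 was higher and 3 lower in OCs over 36 h. For the counts after centring or with absent peaks set, no share of all MITF OC peaks is given and nothing is read from them. With the gene of the listed RefSeq transcript, 51.2281% of sites lay 10 to 100 kb from a TSS. With 100 bp on each side of the center, 11.5607% of gained sites held an E-box, against 15.4% of all MITF OC peaks and 17.2% of PU.1 OC peaks, so they remained below both. Because 211 of 348 gained sites had 8 to 10 MITF tags in OCs, a site called in one library and missed in another at equal occupancy cannot be told apart from a gained one at this depth. No paired analysis was possible because each condition has 1 library.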

Other observations

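Gained sites were spread over chromosomes 1 to 19 and X, with 1 on Un_random and 1 on X_random. Chromosome 1 held 12 of them (3.45%) against 7.07% of all MITF OC peaks, and chromosome 16 held 6 (1.72%) against 4.34%. Chromosomes 2 and 5 held 29 each. These shares were looked at after the values had been seen and were not tested.

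Across the 334 gained sites with a PU.1 OC peak, Spearman's rho between the MITF and PU.1 scores in OCs was 0.156, and it was 0.546 across 4145 MITF OC peaks. The sites share their libraries and the range of MITF scores is narrower at gained sites, so these values are a description.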
